A study of Mus musculus with 6 samples.

Results

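Genes of lipid droplets and fatty acid uptake, 10 in all, were followed in hepatocytes with and without BIM: the droplet coat genes Plin2 and Plin5, the CIDE genes Cidea, Cideb and Cidec, the lipase genes Pnpla2 and Pnpla3 with the lipase inhibitor gene G0s2, and the uptake and binding genes Cd36 and Fabp1. These 10 of the 48353 genes in the files were taken from a list of symbols, not from their values, and all 10 were found. The hepatocytes, which make up most of the liver, were freed from C57BL/6 livers by collagenase perfusion, and their polyadenylated RNA was sequenced from a single end. The knock-out group (3 libraries) came from Bim lox/lox mice crossed with Alb-Cre mice, in which Cre is driven by the albumin promoter of hepatocytes, so other liver cells keep Bim. The comparison group (3 libraries) is labelled wild-type, with no word on whether those mice carried the floxed allele or Cre. The protocol speaks of male mice on chow, or on a high fat diet begun at 8 to 10 weeks of age and kept for 14 to 20 weeks. It does not tie a diet or an age to a library. The study addresses BIM downstream of the kinase JNK in liver steatosis of obesity. The labels do not say whether each sample was a different animal, so a p-value here covers sample-to-sample spread only, and that spread may be technical.

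Hepatocytes store triglyceride in droplets with a coat of perilipins. PLIN2 is the main perilipin of liver droplets and PLIN5 the one of oxidative tissues, which tethers droplets to mitochondria. CIDE proteins sit where droplets touch and move lipid from the smaller into the larger droplet, and CIDEB also takes part in loading very low density lipoprotein. ATGL, the product of Pnpla2, starts triglyceride breakdown, G0S2 blocks it, and PNPLA3 is a related droplet protein whose human variant is tied to fatty liver. CD36 brings fatty acids through the plasma membrane, and FABP1 is the fatty acid carrier of the hepatocyte cytosol. Several of these genes are textbook targets of the PPAR nuclear receptors.

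Estimated reads came to 25335211 to 31130519 per library. The gene targeted in the study, Bcl2l11, had 0 reads in each knock-out library and 0, 680 and 478 in wild-type replicates 1 to 3, so in this check wild-type replicate 1 read like the knock-out libraries. The locus has 8 transcripts, and exact zeros are common at such loci, so these zeros can be failed estimates too and the check is weak. Of 12 hepatocyte markers such as Alb, Apoa1 and Ttr, 10 to 12 were above 0 in each library. Their sum was 32135 to 46816 RPKM (reads divided by transcript length and by the library total) in knock-out and 25309 to 59804 in wild-type. Alb and Trf made up most of each sum. Cps1 was low, at 3.09 to 9.17 RPKM, Apoc3 was above 0 in wild-type replicate 2 only, and Hnf4a was at 0 in knock-out replicate 3. Wild-type replicate 1 stood apart in macrophage genes, with 4605 RPKM summed over 15 Kupffer cell and macrophage markers against 84.9 to 155.4 in the other 5 libraries. Knock-out replicate 1 and wild-type replicate 2 stood apart in interferon response genes, at 4897 and 4646 RPKM summed over 10 genes against 878.5 to 1851 in the others. Differences of the tested members are also given without wild-type replicate 1 and without the pair high in interferon genes. In bulk samples, fewer cells of a type and less RNA per cell cannot be told apart.

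Of the 10 genes, 5 were above 0 in all 6 libraries (Plin2, Cidea, Cideb, G0s2 and Fabp1), 4 were listed at 0 in some (Plin5, Cidec, Pnpla2 and Cd36), and 1 in all (Pnpla3). The 5 genes with zeros all lie at loci that carry 2 or more annotated transcripts, while Cidea, G0s2 and Fabp1, with 1 transcript each, had a value in every library. Over the 8037 genes that averaged 1 RPKM or more at loci with 2 or more transcripts, 34.21% of library values were exactly 0, against 0.04% among the 2984 such genes at loci with 1 transcript. A 0 of Plin5, Cidec, Pnpla2, Pnpla3 or Cd36 can therefore be an estimate that failed, and these genes are given library by library with no mean or fold. Plin5 and Pnpla3 averaged below 1 RPKM, so they are not among those 8037 genes. The 4 genes that were above 0 throughout and averaged 1 RPKM or more (Plin2, Cideb, G0s2 and Fabp1) were tested on log2(RPKM + 1) with limma. The fifth, Cidea, was below that mean.

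**Figure D1:**
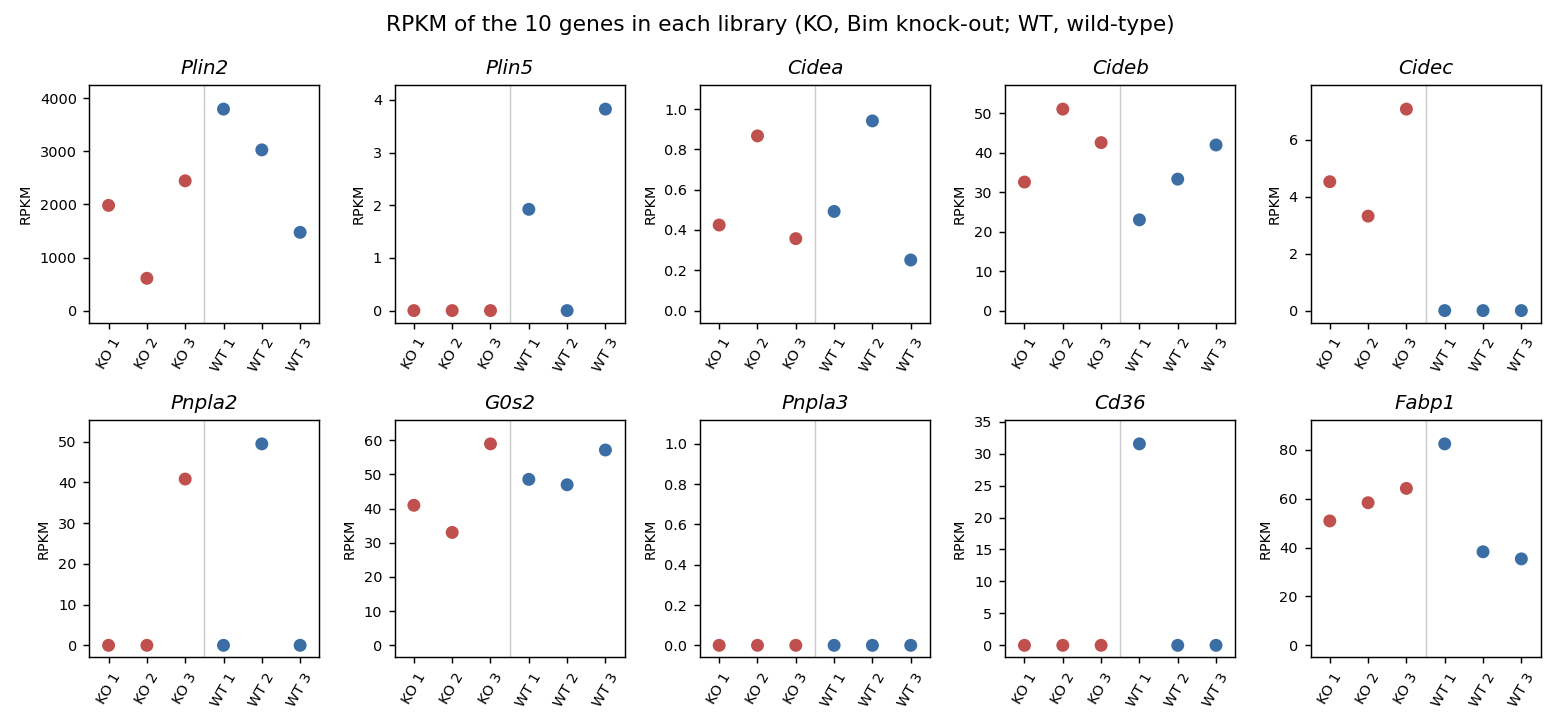
Each panel plots the RPKM of 1 gene (vertical axis, linear, its own scale) in the 6 libraries (horizontal axis; KO, knock-out; WT, wild-type), 1 point per library. Cidec has points above 0 in the 3 knock-out libraries only, Cd36 in wild-type replicate 1 only, and Plin2, Cideb, Cidea, G0s2 and Fabp1 overlap between the groups.

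None of the 4 tested genes passed (0 at a limma adjusted p below 0.05), nor did any of the 5538 genes tested (0%). At an unadjusted p below 0.05 there were 0 of the 4 genes and 130 of the 5538 (2.35%), and voom on the estimated reads called 0 genes too. Of the 4 differences, 2 were positive and 2 negative, with a median of 0.01 on the log2 scale against 0.001 over all genes tested. None had groups that did not overlap (0 of 4, against 329 of 5538 genes, 5.94%). By level per length, Plin2 stood far above the other members in both groups. Fabp1 (35.4 to 82.5 RPKM over the 6 libraries), G0s2 (33.0 to 58.9) and Cideb (23.0 to 51.1) overlapped, so their order is within the spread of the libraries. Cidea, at 0.251 to 0.941 RPKM, was below all of these.

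The stretches of genome before these 4 genes are shown because these are the members that could be tested. They run 5′ to 3′ along the strand of the gene, from RefSeq's promoter table (GRCm38.p6, which held 9 of the 10 genes), and stop before the first transcript start in the deposited annotation. Capitals mark matches, on either strand, to AGGTCA, the element that nuclear receptors bind, to a direct repeat of AGGNCA with 1 base between the copies, the arrangement PPAR binds with RXR, and to TATAAA. The AGGTCA and repeat matches can overlap.
Plin2: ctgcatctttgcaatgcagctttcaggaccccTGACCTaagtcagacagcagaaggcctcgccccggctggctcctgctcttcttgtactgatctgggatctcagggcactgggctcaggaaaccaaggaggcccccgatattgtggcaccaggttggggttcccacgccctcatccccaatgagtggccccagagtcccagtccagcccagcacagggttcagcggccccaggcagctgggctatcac
Cideb: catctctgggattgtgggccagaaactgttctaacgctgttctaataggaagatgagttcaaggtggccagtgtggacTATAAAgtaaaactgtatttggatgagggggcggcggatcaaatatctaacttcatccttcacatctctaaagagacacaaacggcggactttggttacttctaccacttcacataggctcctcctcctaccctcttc
G0s2: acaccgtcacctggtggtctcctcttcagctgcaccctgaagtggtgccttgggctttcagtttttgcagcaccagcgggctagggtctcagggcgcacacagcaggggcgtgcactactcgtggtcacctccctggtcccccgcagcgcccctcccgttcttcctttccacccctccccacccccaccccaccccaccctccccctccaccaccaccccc
Fabp1: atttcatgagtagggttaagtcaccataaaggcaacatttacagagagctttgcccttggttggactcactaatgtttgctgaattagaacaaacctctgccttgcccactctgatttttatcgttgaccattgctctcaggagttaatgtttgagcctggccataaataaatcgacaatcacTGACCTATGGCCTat
The stretches are chr4:86670061-86670309 (minus strand) for Plin2, chr14:55758459-55758674 (minus) for Cideb, chr1:193273218-193273438 (minus) for G0s2 and chr6:71199629-71199826 (plus) for Fabp1. Fabp1 alone held the direct repeat, which lies 67 to 55 bases before its RefSeq start and overlaps an AGGTCA match on the minus strand. Over the 250 bases before the start, that repeat was found in 111 of 32851 promoters of the table (0.338%), AGGTCA in 14% and TATAAA in 12.4%. Plin2 held 1 AGGTCA match, 218 to 213 bases before its RefSeq start, and Cideb 1 TATAAA match, 172 to 167 bases before. Fabp1 also held a TATAAA match 30 to 25 bases before its RefSeq start and another AGGTCA match 9 to 4 bases before, both past the end of the stretch shown. In the window shown for G0s2 none of these letters were found. These matches describe the sequence and say nothing of binding in these cells.

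Plin2 (ENSMUSG00000028494; chromosome 4, 86648386 to 86670060, minus strand, GRCm38) was the highest of the 10 genes, ranked 21 to 222 by RPKM in the 6 libraries. It measured 1983, 609 and 2446 RPKM in knock-out replicates 1 to 3 and 3797, 3029 and 1474.5 in wild-type replicates 1 to 3. Knock-out replicate 2 was the lowest and wild-type replicate 1 the highest, and the groups overlapped. The means were 1679 ± 956 and 2767 ± 1183 RPKM (SD, n = 3 each). Knock-out minus wild-type was -0.84 on the log2 scale (SE 0.62, 95% interval -2.36 to 0.68, limma adjusted p = 0.996). In knock-out replicate 2, where Plin2 and G0s2 were lowest and Cideb highest, the sum of 5 biliary markers was also the highest, at 509.9 RPKM against 9.09 to 353.1 in the others. Nearly all of it was Spp1 (503.6 RPKM), which was listed at 0 in knock-out replicate 1. The other biliary markers did not follow: Epcam was lowest in knock-out replicate 2 (0.0989 RPKM). Sox9, at 6.2 RPKM there, was lower only in wild-type replicate 3 (5.68). Krt19 and Krt7 were at 0 in all 6 libraries, and the part of biliary cells in the values was not tested. The SE of Plin2 was larger than that of 94.6% of all genes tested. Without knock-out replicate 2 the difference was -0.22, and without wild-type replicate 1 it was -0.56.

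The estimated reads of Plin2 varied less than its RPKM. As CPM (estimated reads scaled to 1 common library total) they came to 1408, 823 and 1544 for knock-out replicates 1 to 3 and to 2294, 1410.4 and 1513 for wild-type ones, a 2.79-fold range against 6.24-fold in RPKM. The difference in CPM was -0.48 (SE 0.29, limma adjusted p = 0.999), with a 95% interval of -1.19 to 0.22. Knock-out replicate 2 and wild-type replicate 1 were again the lowest and the highest.

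Plin2 has 8 annotated transcripts, 6 of which received reads, and the division among them differed between libraries of the same group. The full-length coding transcript ENSMUST00000000466 (1888 bases, 8 exons) took 42.7%, 100% and 35.1% of the reads of the gene in the knock-out libraries and 37.4%, 17.2% and 73.9% in wild-type. ENSMUST00000154999, a transcript of 588 bases annotated without a coding frame that shares 67% of its exon bases with the full-length one, took 17%, 0% and 28.6% in the knock-out libraries and 47.2%, 72.6% and 8.3% in the wild-type ones. ENSMUST00000134437 took 40.2% in knock-out replicate 1 and 0% elsewhere. ENSMUST00000140382 took 36.2% in knock-out replicate 3, 15.1% in wild-type replicate 1 and 0% elsewhere. Since RPKM divides by transcript length, reads placed on the 588-base transcript weigh more in the summed RPKM than reads placed on the full-length one. Knock-out replicate 2, the library with the lowest RPKM, was the 1 library in which every read of Plin2 was placed on the longest transcript.

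**Figure D2:**
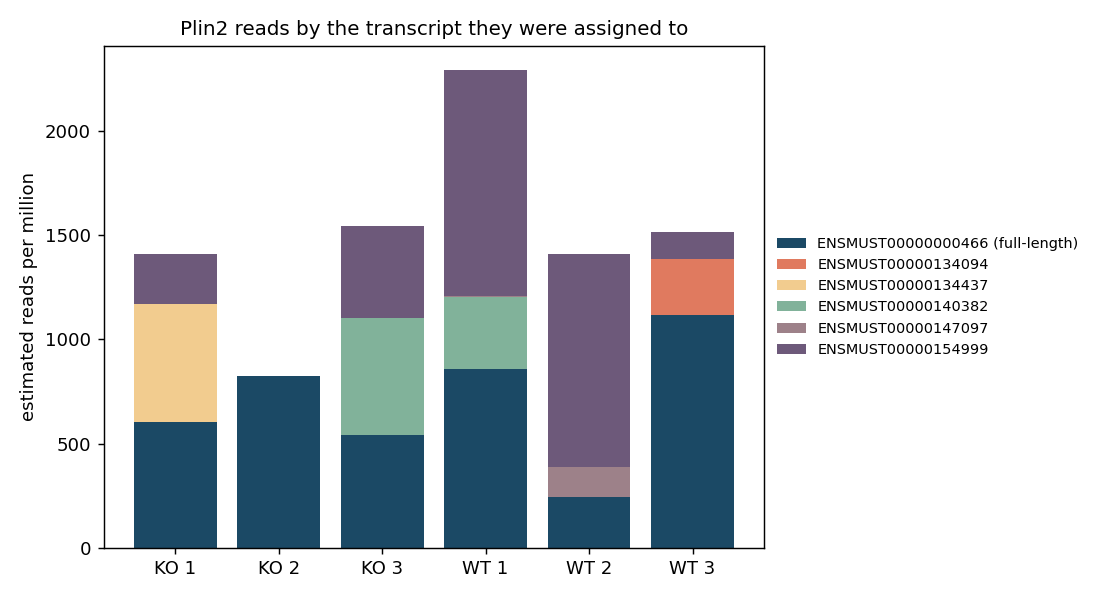
Stacked bars give the estimated Plin2 reads as CPM (vertical axis) in each library (horizontal axis; KO, knock-out; WT, wild-type), divided by the transcript they were assigned to. The total runs from 823 in knock-out replicate 2 to 2294 in wild-type replicate 1, and the share of the full-length transcript from 17.2% to 100%.

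Plin5 (ENSMUSG00000011305; chromosome 17, 56111601 to 56117596, minus strand) was listed at 0 in the 3 knock-out libraries and in wild-type replicate 2. It had 80 reads (1.92 RPKM) in wild-type replicate 1 and 156 (3.83 RPKM) in wild-type replicate 3. All of its reads were placed on 1 of its 2 transcripts, which have the same length. The groups overlapped at 0. Among genes averaging at least 1 RPKM at loci with 2 transcripts, 31.44% of library values were 0. Plin5 fell below that mean and is not in that set.

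The CIDE genes gave 3 different patterns. Cidec (ENSMUSG00000030278; chromosome 6, 113424634 to 113435760, minus strand), which builds large droplets in fat and in fatty liver, had 156, 112 and 232 reads in knock-out replicates 1 to 3 (4.53, 3.32 and 7.08 RPKM). It was listed at 0 in each wild-type library, so the groups did not overlap. All of its reads were placed on ENSMUST00000032416, 1 of 4 transcripts. The pattern of reads in every knock-out and in no wild-type library was found in 47 of 11021 genes that averaged 1 RPKM or more (0.426%), and the opposite one in 56 (0.508%). All 47 lie among the 8037 genes at loci with 2 or more transcripts (0.585%). Among the 1051 such genes at loci with 2 or more transcripts that were at 0 in exactly 3 libraries, the 47 make up 4.47%. With exact zeros kept in the fit, limma called 87 of 11021 genes (0.789%), and Cidec was not among them (adjusted p = 0.0715). The fat cell markers Adipoq, Plin1, Lep, Retn and Cfd were listed at 0 in all 6 libraries. The other markers of that list, Lipe and Fabp4, came to 0 to 17.4 RPKM in knock-out and 0 to 35.2 in wild-type. The part of fat cells in the Cidec values was not tested.

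Cideb (ENSMUSG00000022219; chromosome 14, 55754045 to 55758458, minus strand), the CIDE gene of normal liver, was read in every library. Knock-out replicates 1 to 3 measured 32.6, 51.1 and 42.6 RPKM, and wild-type replicates 1 to 3 measured 23.0, 33.3 and 42.0. The lowest library was wild-type replicate 1 and the highest knock-out replicate 2, and the groups overlapped. The means were 42.1 ± 9.25 and 32.8 ± 9.49 RPKM (SD, n = 3 each). The difference was 0.37 (SE 0.27, 95% interval -0.29 to 1.02, limma adjusted p = 0.996). Without wild-type replicate 1 it was 0.14, and without the pair of libraries high in interferon genes 0.57. Its coding transcript ENSMUST00000001497 took 100%, 65.2% and 50.5% of the reads in the knock-out libraries and 59.7%, 58.8% and 44.8% in the wild-type ones. The rest was placed on ENSMUST00000136270, annotated as a retained intron. Exons of Cideb share 1136 bases with Nop9 on the other strand, and whether the counting used strand is not given, so reads there are uncertain. Nop9 had 1076 to 1224 reads per library.

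Cidea (ENSMUSG00000024526; chromosome 18, 67343564 to 67367794, plus strand), the CIDE gene of brown fat, was close to 0 throughout. Knock-out replicates 1 to 3 held 10, 20 and 8 reads, and wild-type replicates 1 to 3 held 12, 24 and 6. The groups overlapped, and at 0.251 to 0.941 RPKM it ranked in the lowest 22.5% of genes above 0 in every library. Without the filter on low values its difference was -0.0019 on the log2(RPKM + 1) scale (SE 0.20), where low genes are pulled toward 0.

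Of the lipase genes, Pnpla2 (ENSMUSG00000025509; chromosome 7, 141455198 to 141460743, plus strand) had 1608 reads (40.8 RPKM) in knock-out replicate 3 and 2217 (49.4 RPKM) in wild-type replicate 2. It was listed at 0 in the other 4 libraries, which came from both groups. All of its reads were placed on ENSMUST00000026583, annotated as a target of nonsense-mediated decay, although the gene has 7 transcripts. Each group thus had 1 library with reads, and the groups overlapped. Pnpla3 (ENSMUSG00000041653; chromosome 15, 84167816 to 84189512, plus strand) was listed at 0 in all 6 libraries, at a locus with 2 annotated genes.

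G0s2 (ENSMUSG00000009633; chromosome 1, 193272161 to 193273217, minus strand) has a single transcript of 871 bases and was read in every library. Knock-out replicates 1 to 3 held 722, 570 and 988 reads (41.0, 33.0 and 58.9 RPKM). Wild-type replicates 1 to 3 held 886, 896 and 1022 (48.6, 47.0 and 57.1 RPKM). In RPKM, knock-out replicates 1 and 2 were below every wild-type library and knock-out replicate 3 above all of them. The order was the same in CPM, with 39.0 in knock-out replicate 3 and 36.3 in wild-type replicate 3. In reads not scaled to the library total, wild-type replicate 3 was the highest. The means were 44.3 ± 13.3 and 50.9 ± 5.47 RPKM (SD, n = 3 each). The difference was -0.23 (SE 0.23, 95% interval -0.79 to 0.33, limma adjusted p = 0.996). Without knock-out replicate 3 it was -0.45, and without knock-out replicate 2 it was -0.04.

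Fabp1 (ENSMUSG00000054422; chromosome 6, 71199827 to 71205023, plus strand) has 1 transcript of 553 bases and was read in every library. The knock-out libraries held 570, 640 and 684 reads (50.9, 58.4 and 64.3 RPKM). The wild-type libraries held 956, 464 and 402 (82.5, 38.3 and 35.4 RPKM). The 3 knock-out libraries lay between wild-type replicate 1 above and wild-type replicates 2 and 3 below. The means were 57.9 ± 6.68 and 52.1 ± 26.4 RPKM (SD, n = 3 each). The difference was 0.25 (SE 0.34, 95% interval -0.57 to 1.08, limma adjusted p = 0.996). Without wild-type replicate 2 it was 0.09, and without wild-type replicate 3 it was 0.03. Wild-type replicate 1, the library high in macrophage markers, was the highest: without it Fabp1 was 0.63 higher in knock-out (SE 0.15, 95% interval 0.24 to 1.02), with an unadjusted limma p of 0.00852 and an adjusted p of 1.0 over all genes. In that fit 134 of the 5697 genes tested had an unadjusted limma p below 0.05. Wild-type replicate 1 had the lowest sum of hepatocyte markers and the highest Fabp1, and the part of its cell makeup in the value was not tested. By RPKM Fabp1 ranked 1590 to 3072 among the genes of a library.

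**Figure D3:**
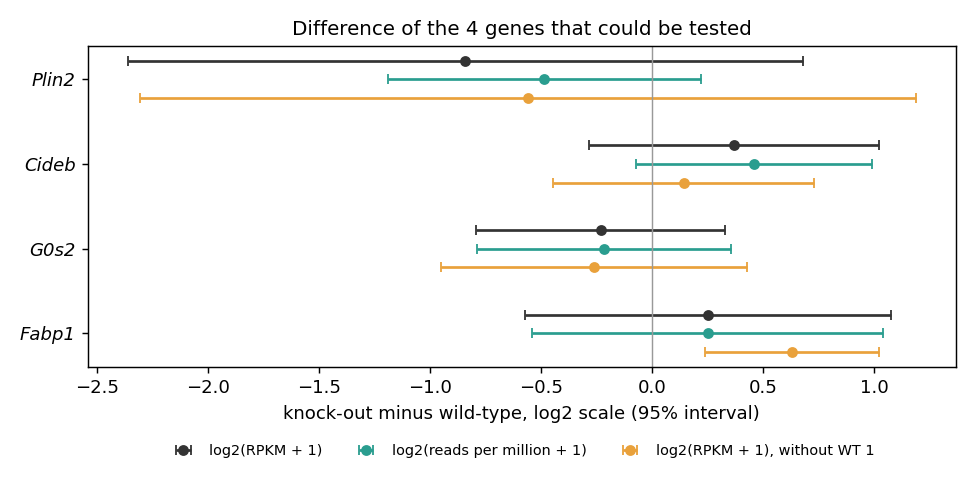
Points give knock-out minus wild-type on a log2 scale (horizontal axis) and bars the 95% interval from limma, for Plin2, Cideb, G0s2 and Fabp1 in RPKM, in CPM, and in RPKM without wild-type replicate 1. Every interval holds 0 except that of Fabp1 without wild-type replicate 1 (0.24 to 1.02), which did not pass after adjustment.

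Cd36 (ENSMUSG00000002944; chromosome 5, 17781690 to 17888801, minus strand) had 1992 reads (31.5 RPKM) in wild-type replicate 1 and was listed at 0 in the other 5 libraries. All of these reads were placed on ENSMUST00000082367, 1 of 6 transcripts. Wild-type replicate 1 was also the library with the most genes read in it alone, 264 of the 1122 genes averaging 1 RPKM or more that were read in a single library (23.5%), against 11.9% to 18.7% for the others. Of the 15 macrophage markers, 14 were above 0 there and 8 to 10 in the others. Clec4f, Adgre1, Vsig4 and C1qc were read there and listed at 0 elsewhere, and Fcgr1 was at 0 in all. Of the 7 endothelial markers, 3 were above 0 there, summing to 37.3 RPKM against 0 to 9.03 in the others, and Pecam1, Lyve1, Kdr and Clec4g were at 0 in all 6. Stab2 and Cdh5 were read in wild-type replicate 1 alone. Oit3 did not follow, with 5.76 RPKM there, 9.03 in knock-out replicate 2 and 5.35 in knock-out replicate 3. CD36 is made by macrophages and endothelial cells as well as by hepatocytes, and the part of these cells in its value was not tested.

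Of the 19 genes of the wider uptake, binding and activation list, 15 were read in some library, and wild-type replicate 1 had the highest value of 6 of them and a 0 for another 6. The other libraries had the highest value of 0 to 3 and a 0 for 2 to 10, with 10 in knock-out replicate 3. Those at 0 in wild-type replicate 1 but read elsewhere were Slc27a2, Slc27a4, Slc27a5, Acsl1, Acsl3 and Dbi, which carry, activate or bind fatty acids. All of these but Acsl3 were also at 0 in knock-out replicate 3, and such zeros can be failed estimates as well. The genes of this paragraph are named after their values were seen. Lpl, the lipase that frees fatty acids from lipoproteins, measured 64.7 RPKM in wild-type replicate 1, 3.17 and 6.19 in the other wild-type libraries and 2.61, 3.83 and 5.43 in knock-out. Fabp4, the fatty acid carrier of fat cells and macrophages, was read there alone, with 576 reads. Fabp5, a related carrier, had 3872 reads there, 2675 and 1213 in wild-type replicates 2 and 3, and 0, 1390 and 0 in knock-out. The knock-out minus wild-type difference of Lpl was -1.38 (SE 1.02, limma adjusted p = 0.996), and the other wild-type libraries lay within or near the range of knock-out.

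**Figure D4:**
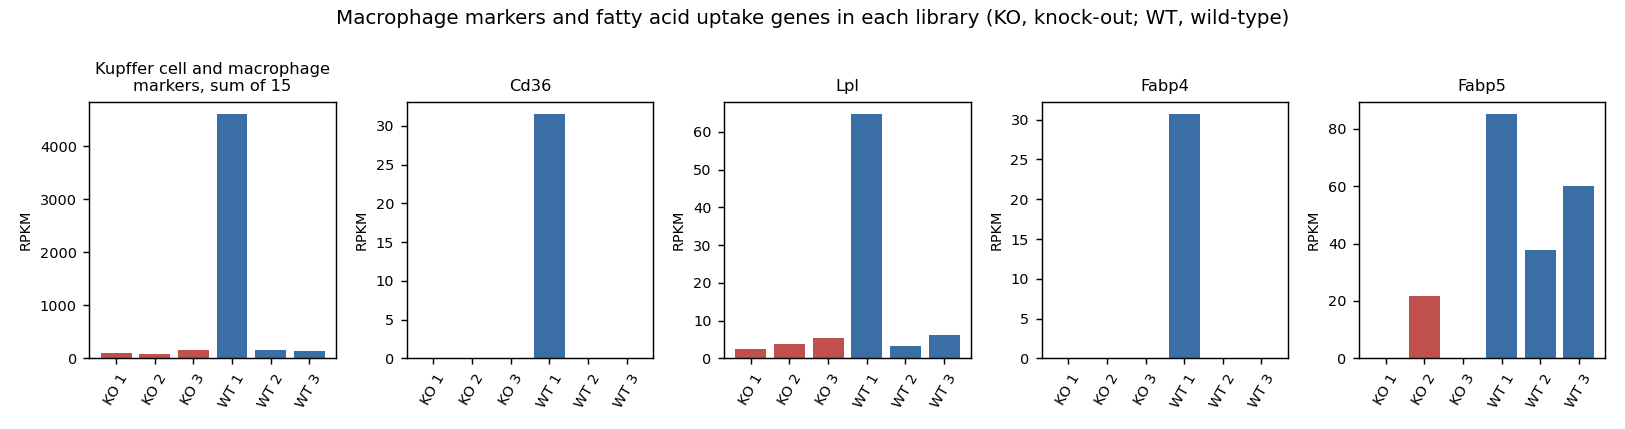
Bars give RPKM (vertical axes, from 0) in each library (horizontal axis; KO, knock-out; WT, wild-type) for the sum of 15 macrophage markers and for Cd36, Lpl, Fabp4 and Fabp5. Lpl, Fabp4 and Fabp5 were picked for their values in wild-type replicate 1, which has the highest bar in every panel, at 4605 RPKM for the markers, 31.5 for Cd36 and 64.7 for Lpl.

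The wider set of 60 genes of the same processes held 12 that could be tested, 35 at 0 in some libraries and 13 at 0 in all. None passed (0 of 12), 1 had an unadjusted p below 0.05 (against 2.35% of all genes tested), 4 differences were positive and 8 negative, and their median was -0.057 against 0.001 over all genes tested. Of 15 genes of droplet coat and formation, 4 were tested with 2 in each direction. Plin3, the perilipin found in all tissues, averaged 41.9 ± 7.75 RPKM over the knock-out libraries and 45.5 ± 10.1 over the wild-type ones (SD, n = 3 each). Faf2, a droplet protein that recruits the degradation machinery, measured 99.8 ± 38.9 and 92.9 ± 42.8 RPKM (SD, n = 3 each). Hsd17b11, a droplet enzyme named here for its values, was listed at 0 in each knock-out library, while wild-type replicates 1 to 3 held 1626, 1952 and 2806 reads, the opposite of Cidec. With exact zeros kept it was called by limma (adjusted p = 0.000428), like 0.789% of genes.

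Of 17 lipases and cofactors, 3 were tested, 1 positive and 2 negative. Ces1g, a liver carboxylesterase, averaged 7.16 ± 2.19 RPKM over the knock-out libraries and 4.01 ± 1.15 over the wild-type ones (SD, n = 3 each). Its groups did not overlap, with 5.26 RPKM as the lowest knock-out value and 4.7 as the highest wild-type one, and the difference was 0.70 (SE 0.26, limma adjusted p = 0.996). Lipa, the lysosomal acid lipase, measured 109 ± 7.57 and 133.6 ± 14.5 RPKM (SD, n = 3 each; difference -0.29, SE 0.14). The groups of Lipa did not overlap either, at 101.7 to 116.8 RPKM in knock-out and 122.8 to 150.1 in wild-type. Over all genes tested, groups did not overlap in 329 of 5538 (5.94%). Carboxylesterase genes are close copies of each other, so reads of Ces1g may be shared with neighbours. Abhd5, the activator of ATGL, and Mgll were not tested and are named here from outside the rule of the smallest p. Abhd5 had a value in knock-out replicate 1 only, at 32.5 RPKM, and Mgll was at 0 in all 6. Such zeros can be failed estimates.

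Of 19 genes of uptake, binding and activation, 3 were tested. Fabp2, the intestinal carrier, averaged 3.01 ± 0.304 RPKM over the knock-out libraries and 2.3 ± 0.747 over the wild-type ones (SD, n = 3 each). The difference was 0.30 (SE 0.18, limma adjusted p = 0.996). Of 9 regulators, 2 were tested. Mlxipl, which drives lipid synthesis from glucose, measured 27.4 ± 6.82 and 41.1 ± 29.6 RPKM, and Cebpa, a hepatocyte transcription factor, 18.5 ± 1.15 and 20.4 ± 8.99 (SD, n = 3 each). Of the PPAR genes, named for their role, Ppara was read in 4 libraries at 6.93 to 8.48 RPKM and Pparg in none (0).

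The genes whose pattern over the 6 libraries was nearest to each tested member were found by the mean absolute distance of log2(RPKM + 1) after subtracting the mean of each gene. For Plin2 they were Phf11b (0.311) and Nampt (0.319), against a median distance of 0.72 over all genes tested. Nampt, like Plin2, was lowest in knock-out replicate 2 (26.4 RPKM) and highest in wild-type replicate 1 (109.2). For Cideb they were Ndfip1 (0.0423) and Glud1 (0.062), against 0.314. For G0s2 they were Plekhg3 (0.0651) and Timm23 (0.0981), against 0.273, and for Fabp1 Gpsm1 (0.0919) and Mat2a (0.123), against 0.366. Phf11b (0.0852 to 2.98 RPKM) and Gpsm1 (1.11 to 3.79 RPKM) were low, and log2(RPKM + 1) narrows the spread of low genes. With 6 libraries and 5538 genes some genes lie near any pattern, so the nearest genes are a description.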

How the data were processed

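The 6 deposited files, 1 per library, list 118492 transcripts and give for each the length, an estimated read count and RPKM. The submitters' processing notes name TopHat2 (version 2) and the GRCm38 (mm10) genome. How reads were divided among transcripts, with or without strand, and the annotation release are not given in the sources used here. In these deposited files, estimated counts summed over a locus came out whole to within 0.001 at 99.46% to 99.66% of loci, of which 92.28% to 92.98% had an even total, so low counts overstate precision and no counting interval is given. Deposited RPKM is scaled to 19245556 to 21899881 reads per library, fewer than the estimated reads in the file. Because counts are estimates written as text, no test made for counts was the main one.

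Reads and RPKM were summed over transcripts per gene (48353 genes, of which 47993 matched a symbol; 30 of 33 member transcripts have the same span in GENCODE M21). Groups came from sample titles. Genes above 0 in all 6 libraries with a mean of at least 1 RPKM were tested on log2(RPKM + 1) with limma 3.58.1 in R 4.3.3 (mean-variance trend, two-sided, no covariate, Benjamini-Hochberg adjustment over 5538 genes, threshold 0.05), after a test on simulated data. Genes with zeros entered only as an alternative. No 2 libraries held the same values. Figures and tables were made with Python 3.11.15, pandas 2.3.3 and numpy 2.4.6. The members, the gene lists, the rules and the alternatives were chosen with earlier results of these data known. The pair of libraries high in interferon genes was left out as an alternative chosen after seeing the data. Named were all members, Bcl2l11, up to 4 genes called per direction or else the 2 with the smallest p in each list, the 2 nearest in pattern to each tested member, and marker genes; names from outside this rule are marked in the text. For 1 gene that the rule names, values are not reported here. The sums of the stellate, lymphocyte and neutrophil marker lists reached 0.0704, 0.143 and 0 RPKM at most.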

Additional observations from a re-analysis of the deposited data

How the results depend on the processing

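Each count and each difference was recomputed under 14 alternative settings and 1 chosen after seeing the data. With exact zeros kept, limma called 87 genes in place of 0, and 1 gene of droplet coat and formation in place of 0 (Hsd17b11). That fit adds genes averaging 1 RPKM or more with a 0 in any library, among them genes at 0 in a whole group. In the other 14 settings 0 genes were called. The differences of Plin2, Cideb, G0s2 and Fabp1 kept their sign and were not called in any of the 15. Leaving out 1 library at a time, Plin2 ranged from -1.24 to -0.22, Cideb from 0.14 to 0.56, G0s2 from -0.45 to -0.04 and Fabp1 from 0.03 to 0.63. Without wild-type replicate 1, G0s2 was at -0.26. Without the pair of libraries high in interferon genes, Plin2 was at -0.95, Cideb at 0.57, G0s2 at -0.25 and Fabp1 at 0.18. In estimated reads scaled to the library total, Plin2 was at -0.48; this setting changes both the division by length and the library total, and the cause was not tested. Replicate numbers are shared by the groups, but samples of the same number did not deviate together (correlations -0.158, -0.049 and -0.005 over 5538 genes). With the replicate number as a block, 0 genes were called and the differences were -0.84 for Plin2, 0.37 for Cideb, -0.23 for G0s2 and 0.25 for Fabp1, as without it. Exact zeros left 5 of the 10 genes and the filter on low values 4, each with 3 libraries a group.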
